A study of Bos taurus with 22 samples.

Results

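The enzymes of glycolysis and of the tricarboxylic acid cycle were followed in the subcutaneous fat of cows before and after their first calving. The members were all probe sets, the small groups of probes that measure a transcript on the array, whose annotation gives a single gene symbol from a list of 31 such genes. A probe set was found for 28 of the 31 genes, out of 9156 genes with a single symbol in the series. DLST, IDH3B and MDH1 were not analysed here. The 28 genes held 41 bovine probe sets, and GAPDH had 3 more among the array's control probe sets. A filter on mean signal kept 37 of the 41, and each of the 28 genes kept at least 1. Of the kept genes, 15 act in glycolysis or its control, 11 act in the mitochondrial cycle, and the other two are ACO1, the cytosolic aconitase, and PC, pyruvate carboxylase.

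Glycolysis splits glucose into pyruvate in the cytosol and yields ATP and NADH on the way, and lactate dehydrogenase interconverts pyruvate and lactate. The tricarboxylic acid cycle in mitochondria oxidises acetyl units to carbon dioxide and feeds the respiratory chain. In fat cells glycolysis also supplies the glycerol backbone of triglyceride, and citrate drawn from the cycle can carry carbon to the cytosol. Ruminant fat makes fatty acids largely from acetate rather than glucose. Lactating cows send much of their glucose to the udder for milk sugar.

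The samples were biopsies of subcutaneous white fat, taken dorsally near the ischium from 11 Holstein heifers that calved for the first time at 24 to 28 months of age. Each animal was sampled 30 days before calving (prepartum) and 14 days after calving (postpartum), giving 22 Affymetrix bovine arrays, 11 in each group. All animals came from 1 farm and none received a dietary treatment, but the labels describe a forage diet with concentrate before calving and a separate diet after it, so calving, lactation and diet cannot be told apart. A code at the end of each title puts 5 cows in one group of arrays, called array set 1, and the other 6 in array set 2, and both samples of a cow carry the same code.

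Levels are given as log2(signal + 7.78), on which 1 unit is a doubling for bright probe sets and a change of a dim gene is understated. A change is the postpartum minus the prepartum level of the same cow. A probe set was called when limma's paired test, with cow as a block, gave an adjusted p under 0.05 over all 14410 kept probe sets. Over these, 494 were called (3.43%), and of 6984 genes taken by their brightest probe set 259 were called (3.71%). Levels of different probe sets were not compared with each other. In bulk tissue, fewer cells of a type and less RNA per cell cannot be told apart.

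The arrays carried the markers of fat tissue, with ADIPOQ (adiponectin) between 9.54 and 11.62 and FABP4 between 12.61 and 13.49 in all 22. ACTA1, the actin of skeletal muscle, had a median of 5.33 and stood more than 2 units above it in 5 arrays, called ACTA1-high below. These were postpartum arrays of cows 382 (7.55), 386 (10.73) and 384 (13.17), and prepartum arrays of cows 384 (11.75) and 387 (12.91). The other 17 arrays lay between 4.30 and 6.86. All 4 cows concerned belong to array set 2. The summed signal of 15 muscle markers ran from 1525 to 73946 prepartum (median 1975) and from 1508 to 127087 postpartum (median 2186). The pairing of the arrays labelled cow 387 is in doubt. The correlation of their deviations from the group means was -0.09, against 0.18 to 0.43 for the other 10 cows. These arrays also differ in ACTA1 (12.91 prepartum and 5.04 postpartum), and the source of the low correlation was not tested. KRT10, an epidermal keratin, was high before calving in cow 330 (9.35), cow 331 (9.34), cow 341 (12.55) and cow 382 (11.48), and was at most 7.11 in any other array. Results are therefore also given for the 7 cows with no ACTA1-high array, and without cows 384 and 387. Of the other marker lists, 3 of 12 adipocyte genes were called lower (LEP, GPD1 and LPL) and 2 of 7 endothelial genes were called higher (VWF and TEK). Of all genes, 3.71% were called. The adipocyte genes had 8 negative and 4 positive changes, with ADIPOQ at 0.0009 (limma adjusted p = 0.998). The endothelial genes had 2 negative and 5 positive changes. None of 9 macrophage, 8 smooth muscle, 2 erythrocyte, 2 brown fat, 2 epidermis or 15 skeletal muscle genes was called by limma over 11 cows, with 2 macrophage and 1 epidermis genes at an unadjusted p under 0.05 and none in the other lists.

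The listed glycolytic enzymes lay mostly below 0 in the change after calving, and 1 passed the test. ALDOC, the aldolase C isoform, fell by 0.55 (SE 0.13, n = 11 cows, a 1.46-fold decrease). Of the 15 glycolysis genes 13 had a negative change, with a median of -0.16, against 47.4% negative and a median of 0.01 over all 6984 genes. Of the 11 mitochondrial cycle genes 7 had a negative change, with a median of -0.06, and none was called by limma or had an unadjusted p under 0.05. ALDOC was the single call among the 37 member probe sets (background 3.43%) and among the 28 genes (background 3.71%). An unadjusted p under 0.05 was reached by 8 of the 37, against 19.8% of all probe sets.

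**Figure D1:**
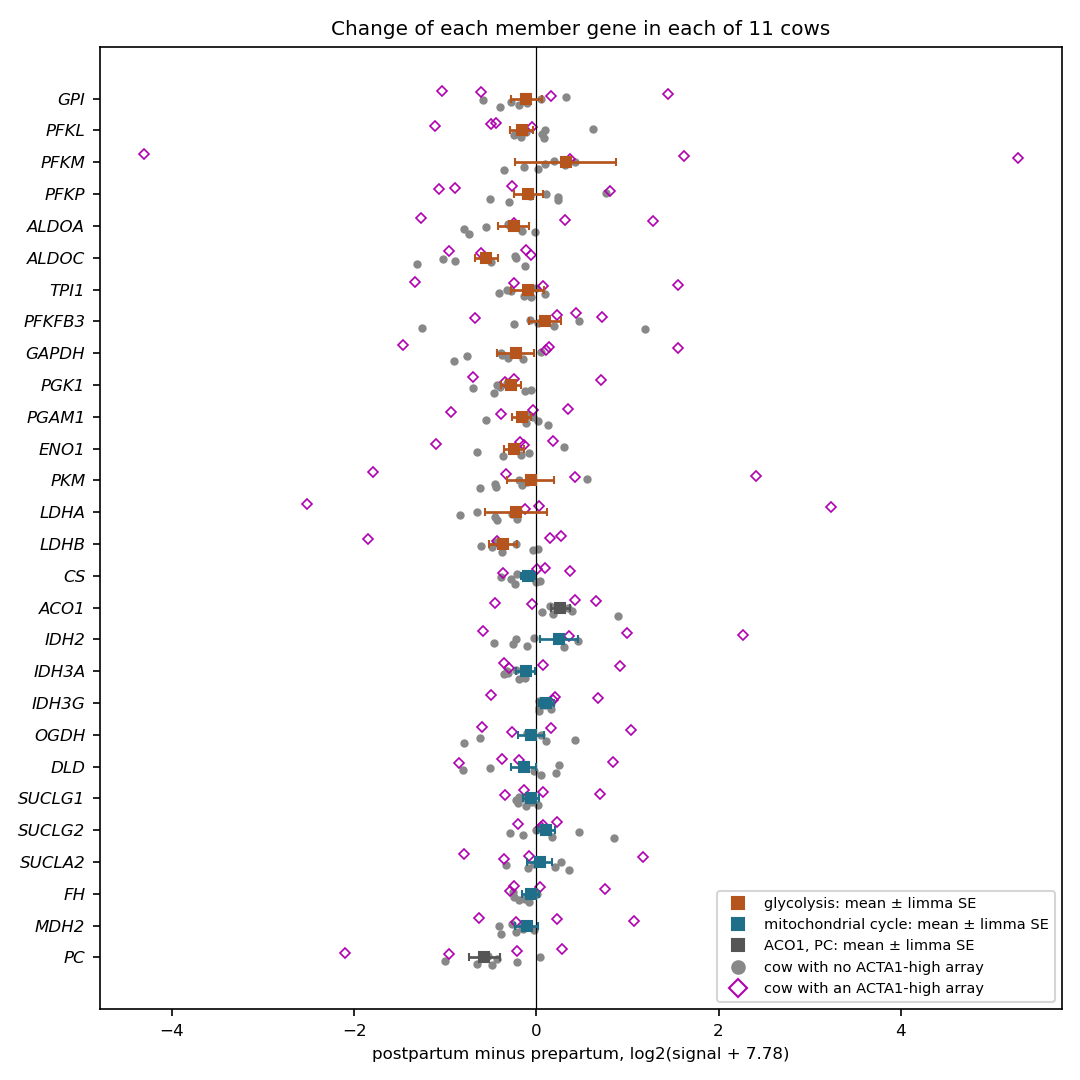
Change of each of the 28 member genes, by its brightest probe set, in each of 11 cows (postpartum minus prepartum, log2(signal + 7.78)). Squares with bars are the mean and its limma standard error, grey dots the 7 cows with no ACTA1-high array and magenta diamonds the 4 cows with one. Most glycolysis means lie left of 0, and the widest spread is that of PFKM, whose cows run from -4.31 to 5.29.

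In the early steps of the pathway, glucose phosphate is rearranged, phosphorylated again and cleaved into triose phosphates. ALDOC had prepartum levels from 5.77 to 7.52 (median 6.53) and postpartum levels from 5.27 to 6.47 (median 6.21). The groups overlapped, with 4 of the 11 prepartum arrays inside the postpartum range and the other 7 above it. The level was lower postpartum in 11 of 11 cows, with changes from -1.31 in cow 331 to -0.06 in cow 382, and limma gave an adjusted p of 0.0309. The call was lost when any of cows 331, 338, 341, 346 or 386 was left out (adjusted p from 0.0533 to 0.0747). In the 7 cows with no ACTA1-high array the change was -0.61 (SE 0.16, adjusted p = 0.0535), and without the 4 cows with high KRT10 it was -0.52 (adjusted p = 0.251).

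The other aldolase, ALDOA, the main form of muscle, had a change of -0.25 (SE 0.17, adjusted p = 0.463). It was lower in 9 of 11 cows and in 7 of 7 cows with no ACTA1-high array, where the change was -0.41 (SE 0.10, adjusted p = 0.0515). PFKL, PFKP and PFKM encode subunits of phosphofructokinase, which commits sugar phosphate to glycolysis. PFKL, the liver-type subunit, had a change of -0.16 (SE 0.12, adjusted p = 0.505). PFKP, the platelet-type subunit, ran from 7.63 to 8.85 prepartum (median 8.20) and from 6.77 to 9.01 postpartum (median 8.19). Its groups overlapped throughout and its change was -0.09 (SE 0.16, adjusted p = 0.811), lower in 6 of 11 cows.

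PFKM, the muscle-type subunit, ran from 6.24 to 11.13 prepartum (median 6.67) and from 6.41 to 12.53 postpartum (median 6.83). The highest prepartum array was that labelled cow 387 and the highest postpartum array that of cow 384, while the medians differed little. Its change was 0.32 with an SE of 0.56 (adjusted p = 0.793), and in the 7 cows with no ACTA1-high array it was 0.08 with an SE of 0.11 (adjusted p = 0.732). The other two PFKM probe sets had changes of 0.15 and 0.40, with SEs of 0.60 and 0.62. PFKFB3 makes the activator fructose 2,6-bisphosphate rather than a glycolytic intermediate. Its kept probe sets had changes of 0.09 (SE 0.18) and 0.36 (SE 0.18), and neither was called. GPI, which turns glucose 6-phosphate into fructose 6-phosphate, had a change of -0.11 (SE 0.17, adjusted p = 0.766). TPI1, which interconverts the triose phosphates, ran from 9.16 to 11.43 prepartum (median 9.77) and from 8.81 to 11.66 postpartum (median 9.64), with a change of -0.10 (SE 0.18, adjusted p = 0.809).

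In the later steps, triose phosphate is oxidised to pyruvate with a gain of ATP. PGK1, the kinase that makes the first ATP, ran from 9.78 to 10.40 prepartum (median 10.04) and from 9.45 to 10.79 postpartum (median 9.63). The postpartum array of cow 384 was the highest of all 22, and each of the other 10 cows was lower postpartum. The change was -0.28 (SE 0.11, adjusted p = 0.175) over 11 cows. It was -0.36 (SE 0.08, adjusted p = 0.0415, a 1.28-fold decrease) in the 7 cows with no ACTA1-high array, a call lost without cow 341, and -0.34 (SE 0.07, adjusted p = 0.0115) without cows 384 and 387. GAPDH, the enzyme just before it and a common reference gene, had a change of -0.23 (SE 0.20, adjusted p = 0.569), and of -0.41 (SE 0.11, adjusted p = 0.0641) in those 7 cows. The 3 GAPDH control probe sets, which lie towards the 3′ end, the middle and the 5′ end of the transcript, had mean changes of -0.19, -0.27 and -0.22 (SD 0.60, 0.81 and 0.78, n = 11). Their 3′ to 5′ log2 ratio, a sign of RNA quality, differed by 0.03 between the times (SD 0.28). It was 1.26 in the postpartum array of cow 341 and at most 0.62 in the other arrays. Cow 341 had the lowest glycolysis median (-0.49) of the 7 cows with no ACTA1-high array, and the lowest changes of those 7 cows in PGK1 (-0.70), in LDHA by its brightest probe set (-0.84) and in PC.

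PGAM1, which moves the phosphate group of phosphoglycerate, had a change of -0.16 (SE 0.10, adjusted p = 0.407). ENO1, which forms phosphoenolpyruvate, had a change of -0.25 (SE 0.11, adjusted p = 0.222) and was lower in 9 of 11 cows. PKM, which forms pyruvate, ran from 8.20 to 10.47 prepartum (median 8.56) and from 7.76 to 11.28 postpartum (median 8.36). Its change was -0.06 (SE 0.26, adjusted p = 0.927), lower in 8 of 11 cows, with cow 384 at 2.41 and cow 387 at -1.79.

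Lactate dehydrogenase is built from LDHA and LDHB subunits. LDHB, the heart-type subunit, ran from 11.77 to 12.55 prepartum (median 12.28) and from 10.70 to 12.35 postpartum (median 12.04). The lowest array was the postpartum array of cow 384, and 7 of the 11 prepartum arrays lay inside the postpartum range. The change of -0.37 (SE 0.15) did not pass (adjusted p = 0.193), and in the 7 cows with no ACTA1-high array it was -0.31 (SE 0.09, adjusted p = 0.0854).

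LDHA, the muscle-type subunit, was measured by 3 kept probe sets that did not give the same answer. They are called here by their mean signal the brightest, the middle and the dimmest. The brightest ran from 9.27 to 12.20 prepartum (median 9.72) and from 8.996 to 12.81 postpartum (median 9.47), with a change of -0.22 (SE 0.34, adjusted p = 0.762). The dimmest ran from 7.71 to 8.77 prepartum (median 8.14) and from 7.11 to 8.82 postpartum (median 7.65), with a change of -0.41 (SE 0.11, adjusted p = 0.0527), lower in 10 of 11 cows. In both of these the top array of each group was the ACTA1-high array of cow 387 or cow 384. In the 7 cows with no ACTA1-high array both fell, by 0.44 (SE 0.09, adjusted p = 0.0213) and by 0.47 (SE 0.08, adjusted p = 0.0145), and each was lower in 7 of 7 cows. The middle probe set ran from 9.43 to 9.99 prepartum (median 9.71) and from 8.94 to 10.04 postpartum (median 9.64). Its change was -0.06 (SE 0.10) over 11 cows and 0.11 (SE 0.09, adjusted p = 0.541) in those 7, lower in 2 of 7.

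**Figure D2:**
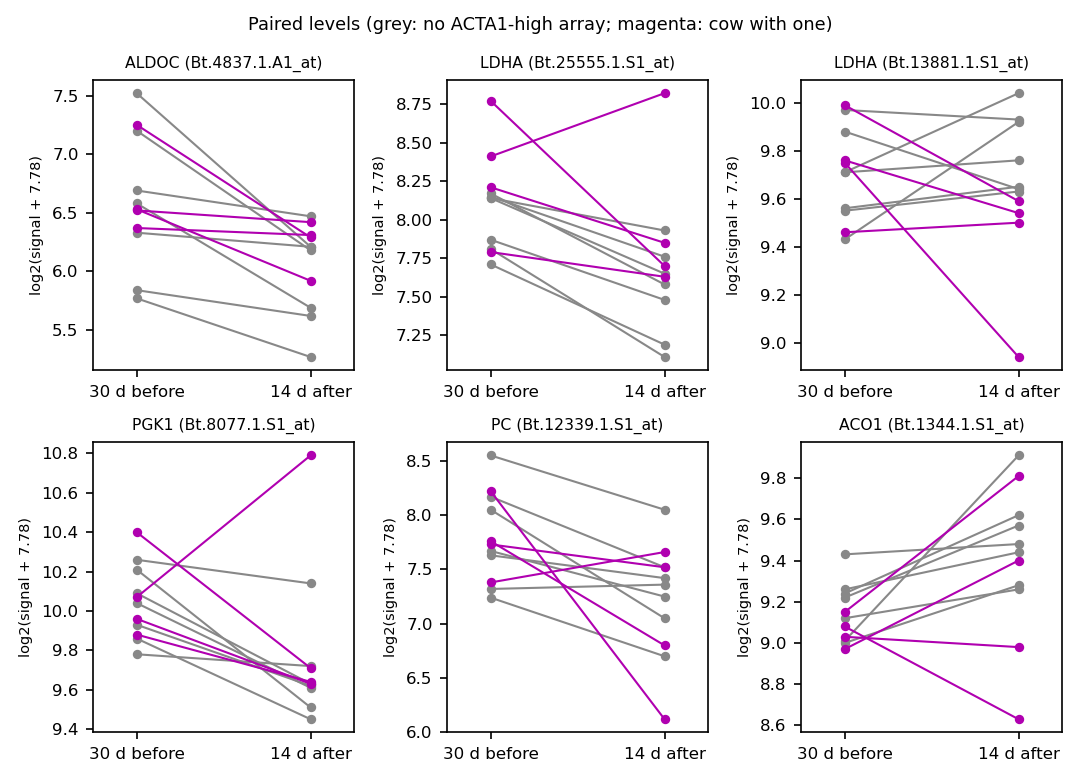
Prepartum and postpartum levels of 6 member probe sets, on the log2(signal + 7.78) scale, with a line for each cow (grey for the 7 cows with no ACTA1-high array, magenta for the 4 with one). ALDOC is lower postpartum in 11 of 11 cows, the 2 LDHA probe sets shown differ from each other, and ACO1 is higher in 9 of 11 cows.

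In the mitochondrial cycle, the oxidative steps, where NADH or NADPH is formed, are given first. IDH2, the NADP-linked isocitrate dehydrogenase, ran from 7.002 to 8.05 prepartum (median 7.38) and from 7.16 to 10.03 postpartum (median 7.34). A single array, that of cow 384 postpartum, reached 10.03, and the medians of the groups were nearly equal. The change was 0.25 (SE 0.21, adjusted p = 0.555) and -0.04 (SE 0.12, adjusted p = 0.876) in the 7 cows with no ACTA1-high array. IDH3A, the catalytic subunit of the NAD-linked enzyme, ran from 7.85 to 8.35 prepartum (median 8.21) and from 7.54 to 9.14 postpartum (median 7.97). It was lower in 9 of 11 cows, with a change of -0.12 (SE 0.11, adjusted p = 0.595), and lower in 7 of 7 cows with no ACTA1-high array, with a change of -0.23 (SE 0.07, adjusted p = 0.098). Without cow 384 alone it was called, at -0.22 (adjusted p = 0.0461). Its dimmer probe set had a change of -0.25 (SE 0.10, adjusted p = 0.166).

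DLD, the dehydrogenase subunit shared by the 2-oxoglutarate and pyruvate dehydrogenase complexes, ran from 7.53 to 8.86 prepartum (median 8.57) and from 7.77 to 9.24 postpartum (median 8.33). The ranges overlapped and the change was -0.14 (SE 0.13, adjusted p = 0.610), lower in 7 of 11 cows. OGDH, the first subunit of the 2-oxoglutarate complex, had a change of -0.06 (SE 0.14, adjusted p = 0.862). IDH3G, a regulatory subunit of the NAD-linked enzyme, was higher in 10 of 11 cows by a small amount, with a change of 0.11 (SE 0.09, adjusted p = 0.518).

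CS, which makes citrate, had changes of -0.09 (SE 0.08) and 0.01 (SE 0.14) in its 2 probe sets. The succinyl-CoA ligase subunits SUCLG1, SUCLG2 and SUCLA2 had changes of -0.05 (SE 0.09), 0.11 (SE 0.10) and 0.04 (SE 0.14). FH, which hydrates fumarate, had -0.06 (SE 0.09) in its brighter and 0.15 (SE 0.12) in its dimmer probe set. MDH2, which closes the cycle, had -0.11 (SE 0.12) and -0.03 (SE 0.11). None of these probe sets was called.

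PC and ACO1 lie beside the cycle and had larger changes than any cycle gene. PC, pyruvate carboxylase, turns pyruvate into oxaloacetate and so refills the cycle. It ran from 7.24 to 8.55 prepartum (median 7.73) and from 6.12 to 8.05 postpartum (median 7.36), and was lower in 9 of 11 cows, with cow 384 lowest at 6.12 postpartum. The change was -0.57 (SE 0.17) and did not pass (adjusted p = 0.0796). PC was called in the 7 cows with no ACTA1-high array, at -0.47 (SE 0.12, adjusted p = 0.0477, a 1.38-fold decrease), a call lost without cow 341, and without cows 384 and 387, at -0.49 (SE 0.11, adjusted p = 0.0149). Its other two probe sets were below the filter, with group medians between 3.37 and 4.72.

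ACO1, the cytosolic aconitase, also serves as an iron-responsive RNA-binding protein. It ran from 8.97 to 9.43 prepartum (median 9.12) and from 8.63 to 9.91 postpartum (median 9.44), and was higher in 9 of 11 cows. The exceptions were cow 384, at -0.45, and cow 382, at -0.05. The change was 0.26 (SE 0.10, adjusted p = 0.175), and without cows 384 and 387 ACO1 was called higher, at 0.32 (SE 0.09, adjusted p = 0.0498). In the 7 cows with no ACTA1-high array it was 0.33 (SE 0.10, adjusted p = 0.0862), higher in 7 of 7.

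Cytosolic glycolysis was set against the mitochondrial cycle within each cow, by the median change over the genes of each pathway. No p is given for these medians, because the members were listed with results of these data known. The glycolysis median was below 0 in 9 of 11 cows (mean -0.17, SD 0.36), and the cycle median was below 0 in 9 of 11 cows (mean -0.04, SD 0.32). The glycolysis median was the lower of the 2 in 9 of 11 cows, the exceptions being cows 360 and 382, and the mean difference was -0.13 (SD 0.16), smaller than its spread between cows. In cow 384 both medians were far above 0 (0.72 and 0.84), and in cow 387 both were the lowest of all cows (-0.69 and -0.38). In the 7 cows with no ACTA1-high array the glycolysis median averaged -0.23 (SD 0.16), the cycle median -0.09 (SD 0.09) and the difference -0.14 (SD 0.12), below 0 in 6 of 7. The difference averaged -0.10 (SD 0.12) in array set 1 and -0.16 (SD 0.20) in array set 2.

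**Figure D3:**
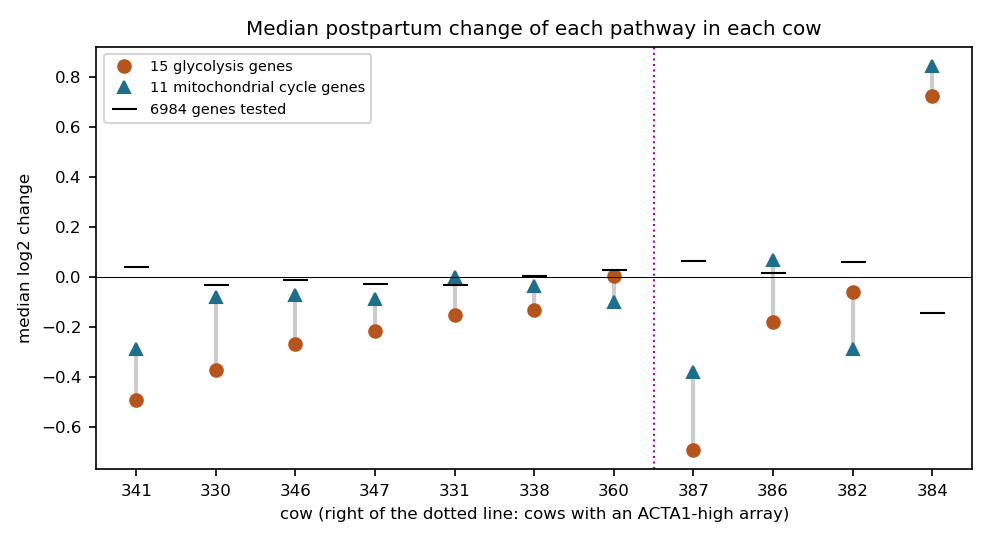
Median log2 change of the 15 glycolysis genes (circles) and the 11 mitochondrial cycle genes (triangles) in each cow, with the median of all 6984 genes as a dash; cows right of the dotted line have an ACTA1-high array. Glycolysis lies below the cycle in 9 of 11 cows, and cows 384 and 387 lie farthest from 0, in opposite directions.

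The per-cow changes of the cycle genes moved together over 11 cows, with a median correlation of 0.709 over 55 gene pairs, against 0.010 over 105 glycolysis pairs and 0.019 over all pairs of tested genes. In the 7 cows with no ACTA1-high array these medians were 0.058 within the cycle and 0.306 within glycolysis, against 0.006 over all pairs. The points share their arrays, and each correlation rests on 11 or 7 cows, so these are descriptions of these cows.

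The members' levels in the ACTA1-high arrays were set against those of the 17 other arrays, as a description. The median muscle marker stood 8.36 above the median of the 17 other arrays in postpartum 384 and 7.60 above it in prepartum 387, the array labelled so. The values for postpartum 386, prepartum 384 and postpartum 382 were 4.64, 3.30 and 1.39. The adipocyte marker median stood at -1.84 from that of the 17 other arrays in postpartum 384, at -0.93 in postpartum 382 and at -0.53 in prepartum 387. It was slightly above the median of the others in postpartum 386 (0.15) and prepartum 384 (0.07). The part of muscle tissue in the member levels was not tested beyond the fits on ACTA1 given here.

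By its brightest probe set, PFKM stood 5.87 above the median of the 17 other arrays in postpartum 384, 4.47 in prepartum 387 and 1.45 in postpartum 386. It was above the whole range of those arrays (6.24 to 6.86) in each of the 5 ACTA1-high arrays, by least in postpartum 382, at 6.96. The dimmest PFKM probe set was at 5.13 in postpartum 382, inside its range in the other arrays (4.31 to 5.58). LDHA followed in the same 2 arrays, with 3.25 and 2.65 above the median by its brightest probe set. PKM stood 2.81 and 2.00 above it, TPI1 2.18 and 1.95, GAPDH 1.96 and 1.5, and ALDOA 1.78 and 1.27. IDH2 stood 2.71 above it in postpartum 384, 0.87 in postpartum 386 and 0.72 in prepartum 387.

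Other members were low in the array with the most ACTA1. In postpartum 384 the difference from the median of the 17 other arrays was -1.51 for PC, -1.48 for PFKP, -1.43 for LDHB and -0.86 for ENO1. Thus the muscle-type subunits PFKM and LDHA and the other subunits PFKL, PFKP and LDHB lay on opposite sides of the median in this array, apart from LDHA by its middle probe set, at -0.77. In postpartum 384, 8 of 15 glycolysis genes lay above the range of the 17 other arrays and 5 below it, and 10 of 11 cycle genes lay above it and none below. Of all 6984 genes, 20.6% lay above and 30.9% below in that array. In prepartum 387, 8 glycolysis genes and 3 cycle genes lay above the range and none of either below, against 6.64% and 8.62% of all genes. In prepartum 384, 5 glycolysis genes and 1 cycle gene lay above and none below (5.83% and 7.73% of all genes). In postpartum 386, PFKM and IDH2 lay above and none below (5.33% and 3.62%). Postpartum 382 had 2 glycolysis genes above, PFKM and PKM, and 3 cycle genes below, SUCLG1, SUCLA2 and FH (8.68% and 5.64%).

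**Figure D4:**
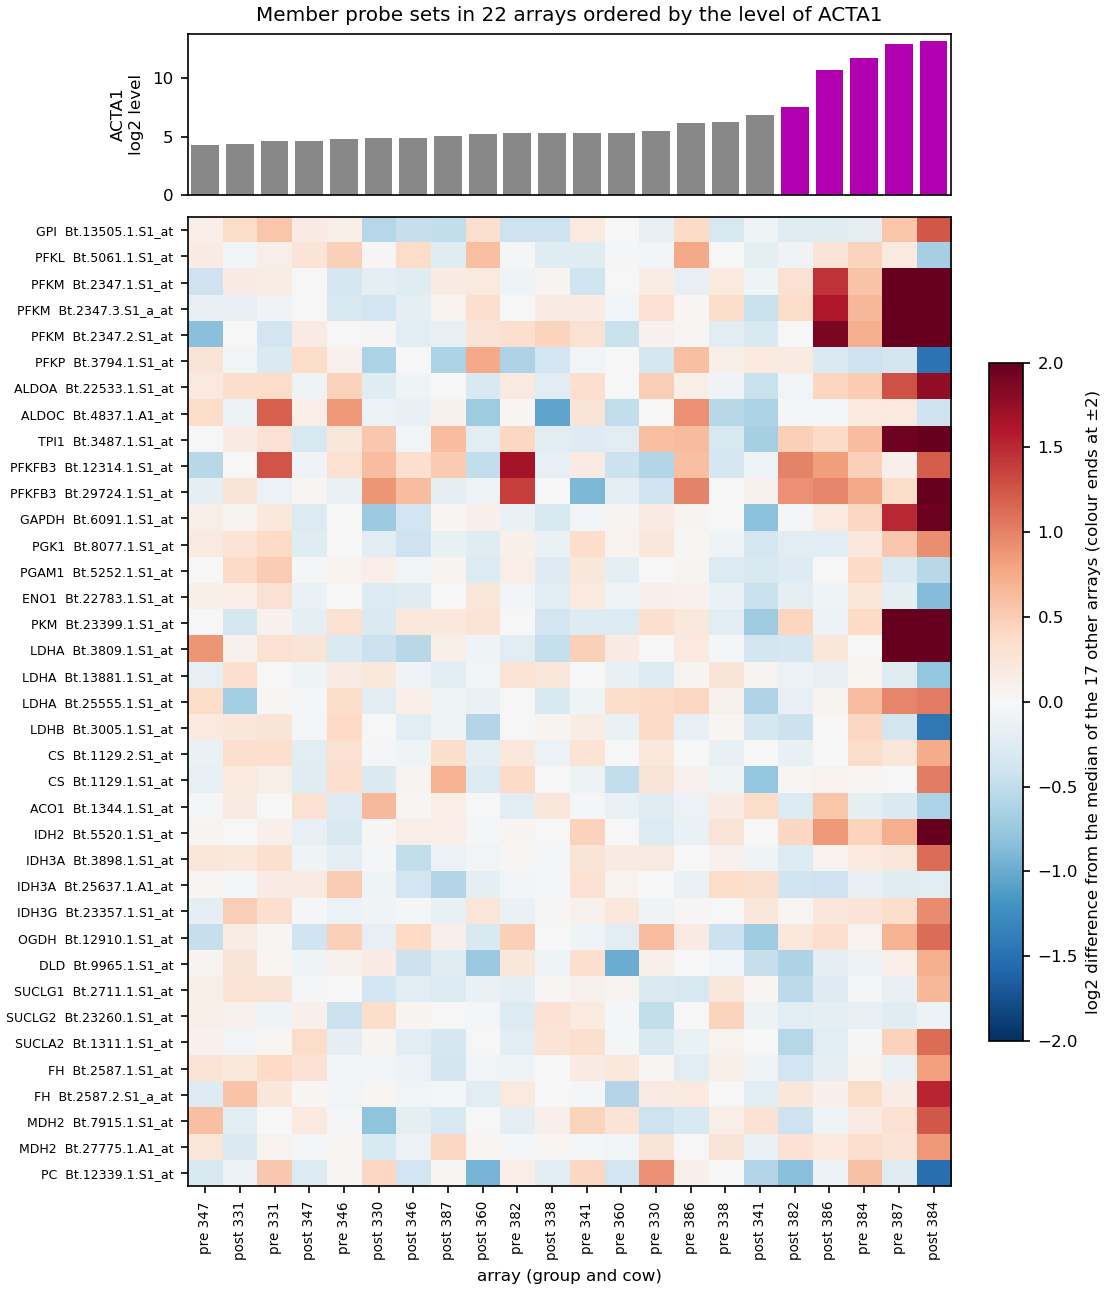
Level of the 37 kept member probe sets in 22 arrays, as the log2 difference from the median of the 17 arrays that are not ACTA1-high (colour, ending at 2 in either direction), with arrays ordered by the log2 level of ACTA1 shown as bars above (magenta for the 5 ACTA1-high arrays). PFKM, TPI1, PKM and LDHA by its brightest and dimmest probe sets are highest in the last 2 arrays. PC, PFKP, LDHB and the middle LDHA probe set are lowest in the last.

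The level of ACTA1 was then added to the paired limma fit. Its slope was called in 0 of 37 member probe sets, against 26 of all 14410 (0.18%). An unadjusted p under 0.05 was reached by 10 of the 37, against 6.14% of all probe sets. PFKM had the steepest slope, 0.54 log2 units per log2 unit of ACTA1 (SE 0.13, adjusted p = 0.291). Without cow 384 the slope was called in 4 of 37 members, against 96 of all 14410 (0.666%). All 4 were upward, namely the 3 PFKM probe sets (0.47 for the brightest, SE 0.04, adjusted p = 1.822e-05) and LDHA by its brightest probe set (0.20, SE 0.03, adjusted p = 0.0139). That fit still holds the arrays labelled cow 387, whose pairing is in doubt and whose ACTA1 change was -7.87. With cows 384 and 387 both left out, the slope was called in 0 of 37 members. Without cow 387 it was called in 0 of 37 members, against 1 of all 14410 (0.00694%), and an unadjusted p under 0.05 was reached by 0 of the 37, against 3.76% of all probe sets. Of the 15 skeletal muscle markers, 12 were called for the slope, upward, ACTA1 itself among them. The call of ACTA1 was fixed in advance, because its own level is the fitted term, and it also counts in the totals over all probe sets.

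Leaving the ACTA1-high cows out gave a smaller SE for 31 of the 37 member probe sets and a larger one for others, ALDOC (0.13 to 0.16) and PFKFB3 (0.18 to 0.22) among them. The median SE over the 15 glycolysis genes was 0.17 over 11 cows and 0.10 over the 7 cows with no ACTA1-high array, although fewer cows entered, while over all genes it was 0.11 in both. In the 7 cows, 4 of 37 member probe sets were called, all lower, against 571 of 14410 (3.96%). These were PGK1, PC and LDHA by 2 probe sets, and ALDOC, the call over 11 cows, was not among them (adjusted p = 0.0535). Cows 330, 331 and 341 of the 7 had high KRT10 before calving, and its part in these calls was not tested within the 7 cows. With cow 341, whose postpartum array had the highest GAPDH ratio, also left out, an alternative chosen after seeing the data, 2 of 37 were called, both LDHA, against 2.44% of all. PGK1 was then at -0.30 (adjusted p = 0.073) and PC at -0.38 (adjusted p = 0.0943). With only the 5 ACTA1-high arrays left out and cow as a random effect, 5 of 37 were called, against 1007 of all 14410. The calls were ALDOA (-0.37, adjusted p = 0.0182), GAPDH (-0.35, adjusted p = 0.0445), PGK1 and the dimmest LDHA probe set lower and ACO1 higher. PC (adjusted p = 0.0873), ALDOC (adjusted p = 0.0654) and the brightest LDHA probe set (adjusted p = 0.0798) were not called in that fit. In the limma fit over the 7 cows, an unadjusted p under 0.05 was reached by 13 of the 37, against 21.1% of all probe sets. Without cows 384 and 387, 6 of 37 were called against 7.43% of all, with ALDOC, PGK1, PC and LDHA by 2 probe sets lower and ACO1 higher. KRT10 was called lower in that fit too (-2.18, SE 0.60, adjusted p = 0.0444). Of the 15 glycolysis genes, 11 had a negative change in the 7 cows, with a median of -0.20, and of the 11 cycle genes 8 did, with a median of -0.14, against 49.8% of all genes.

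**Figure D5:**
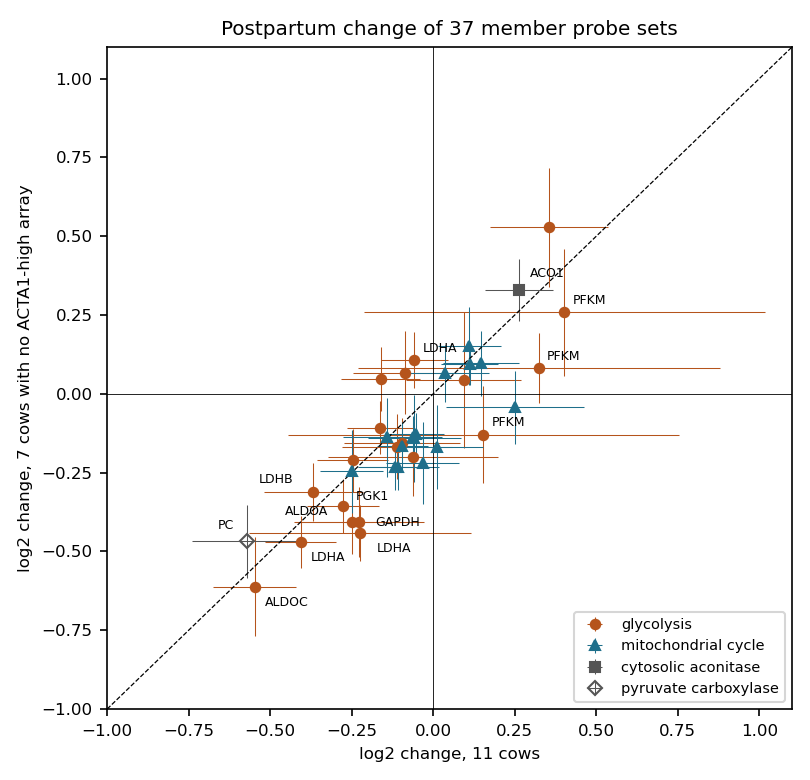
Change of each of the 37 kept member probe sets over 11 cows (x axis) and over the 7 cows with no ACTA1-high array (y axis), in log2 units, with limma standard errors as bars and the line of equal change dashed. The bars of PFKM and of LDHA by its brightest probe set are much longer over 11 cows than over 7, and ALDOC, PC, PGK1 and 2 LDHA probe sets lie at the lower left.

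The difference of the postpartum change between the array sets was fitted as an interaction. It was called in 0 of 37 members and in 0% of all probe sets by limma, with 1 member and 516 of 14410 probe sets at an unadjusted p under 0.05. That member was IDH2, with a mean change of -0.21 in set 1 and 0.63 in set 2 (difference 0.85, SE 0.37, adjusted p = 0.997). ALDOC averaged -0.63 in set 1 and -0.48 in set 2, and PC averaged -0.47 and -0.65.

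Genes around the pathways were taken from lists of their neighbours. Of 6 further glycolysis enzymes kept, 2 had a negative change and 4 a positive one, with a median of 0.02. None was called or had an unadjusted p under 0.05 by limma. Among them were HK1, the housekeeping hexokinase (-0.11, SE 0.12, adjusted p = 0.649), and the muscle enolase ENO3, which reached 12.47 in an array of the postpartum group. Of 6 transport genes, 6 had a negative change and 3 were called lower, while 3.71% of all genes were called. SLC2A1, the basal glucose transporter, ran from 5.63 to 8.62 prepartum (median 7.13) and from 4.64 to 8.47 postpartum (median 6.10) and fell by 1.33 (SE 0.28, adjusted p = 0.0183), lower in 10 of 11 cows. The lactate and pyruvate carrier SLC16A1 fell by 0.79 (SE 0.18, adjusted p = 0.0296) and its chaperone BSG by 0.97 (SE 0.22, adjusted p = 0.0294). SLC2A4, the transporter that insulin moves to the cell surface, was not called (-0.52, SE 0.20, adjusted p = 0.174).

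At the step between the pathways, 3 of 10 genes of pyruvate entry were called, while 3.71% of all genes were called. PDK4, a kinase that switches pyruvate dehydrogenase off, ran from 9.19 to 11.16 prepartum (median 10.51) and from 9.84 to 12.08 postpartum (median 11.19). It rose by 0.74 (SE 0.16, adjusted p = 0.0205), higher in 10 of 11 cows. Its relative PDK2 fell by 0.27 (SE 0.06, adjusted p = 0.0329), lower in 11 of 11, and MPC1, a subunit of the mitochondrial pyruvate carrier, fell by 0.59 (SE 0.14, adjusted p = 0.0308). None of 7 other genes listed with the cycle enzymes was called by limma over 11 cows. They were the succinate dehydrogenase subunits SDHA, SDHB, SDHC and SDHD, the assembly factors SDHAF1 and SDHAF2, and IDH1. The 1 with an unadjusted p under 0.05 was IDH1, the cytosolic NADP-linked isocitrate dehydrogenase (-0.65, SE 0.20, adjusted p = 0.0868). Of 14 genes listed for carbon exchange with the cycle or with glycolysis, 10 had a negative change and 2 were called lower. Of all genes, 47.4% had a negative change and 3.71% were called. PCK2, the mitochondrial phosphoenolpyruvate carboxykinase, fell by 0.84 (SE 0.21, adjusted p = 0.0414). GPD1, which makes glycerol phosphate from a glycolytic triose, fell by 0.93 (SE 0.24, adjusted p = 0.0451). Without cows 384 and 387 each of these 8 genes was still called, with adjusted p from 0.0043 to 0.0334. With the ACTA1-high cows left out, the calls were kept by SLC16A1, BSG, PDK4 and PCK2. The others were not called, with changes of -1.09 for GPD1 (adjusted p = 0.0515), -0.58 for MPC1 (adjusted p = 0.0597), -0.28 for PDK2 (adjusted p = 0.0803) and -0.90 for SLC2A1 (adjusted p = 0.143). Of the neighbours not called over 11 cows, SDHC, a succinate dehydrogenase subunit, was called lower with the ACTA1-high cows left out (-0.34, adjusted p = 0.044). Without cows 384 and 387, IDH1 (adjusted p = 0.0495), the citrate carrier SLC25A1 (adjusted p = 0.0461) and the aminotransferase GOT1 (adjusted p = 0.0256) were called lower.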

How the data were processed

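The authors deposited linear signal intensities, 1 per probe set. MAS5 is named in the submitters' processing notes, with version, settings and build not given in the sources used here. With 2% removed at each end, the trimmed mean of each array was 125, so arrays had been scaled as a whole. Precision is limited by the number of arrays.

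Of 24128 probe sets, 112 controls were left out and 13318 had 1 gene symbol. Symbols were updated by Entrez identifier through a RefSeq gene table for 13283 of them. Levels were log2(signal + 7.78), the constant being the 20th percentile of an array's signals, taken as the median of all arrays. The 14410 probe sets with a mean at or above the 40th percentile were kept, and the brightest one represented a gene. The test was limma 3.58.1 in R 4.3.3 with cow as a fixed block, an intensity trend and Benjamini-Hochberg adjustment, checked on simulated data. The cow number in the titles pairs the arrays, and the series design describes paired sampling. The cows are the replicates.

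The members, the neighbouring lists and the marker lists were chosen with earlier results of these data known. Genes given in full were those called over 11 cows or over the 7 cows with no ACTA1-high array, the 4 glycolysis and 4 cycle genes with the largest changes, and the members that differed most between ACTA1-high and other arrays. Called neighbours, PDK4, SLC2A1 and ACTA1 were given too. IDH1, HK1, ENO3, SLC2A4, SDHC, SLC25A1, GOT1, KRT10 and the values of other members were added after their values were seen. No coordinates or sequences were used here.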

Additional observations from a re-analysis of the deposited data

How the results depend on the processing

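With 494 probe sets called over 11 cows, 338 were called with no replicate block (cow left out of the model), 69 within array set 1 and 0 within array set 2, 1076 with array weights, 285 by an exact sign-flip test, 291 by an ordinary paired test, 1007 without ACTA1-high arrays (cow random), 1070 without cows 384 and 387, 6 without cows 330, 331, 341 and 382, and 242 to 969 when single cows were left out (969 without cow 384). Against 1 of 37 member probe sets and 1 of 28 genes, the count of probe sets was 2 with the 60th percentile filter, ACTA1 as a covariate or quantile normalization. Both counts were 0 in each array set alone, with cow as a random effect, with no replicate block, by the ordinary paired test and without cows 330, 331, 341 and 382. They were 5 and 4 with array weights, 5 and 4 without ACTA1-high arrays, 6 and 5 without cows 384 and 387, 4 and 3 without the ACTA1-high cows, 2 and 1 without these and cow 341 (chosen after seeing the data), and 0 to 6 and 0 to 5 when single cows were left out. The ACTA1 slope, called in 0 members, was called in 13 with no replicate block and in 0 to 4 when single cows were left out. The count of 13 is given without the share called over all probe sets, so it is not read as a trait of the members. With no replicate block, 24 of the 37 members and 28.8% of all probe sets had an unadjusted limma p under 0.05 for this slope. The paired fit had 10 of the 37 and 6.14%. The array set interaction gave 0 under each alternative run. The glycolysis minus cycle difference of -0.13 stayed within 1 SD of that value in each alternative run. The members called differed between these alternatives. ALDOC kept its sign in 31 of 31 alternatives (-0.63 to -0.43) and lost its call in 14, and PC (-0.66 to -0.38) and PGK1 (-0.38 to -0.21) kept theirs and each gained a call in 5. The causes were not tested. Probe sets near background, such as both dim PC probe sets, limit what can be said of isoforms.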
